A study of Drosophila melanogaster with 2 samples.

Results

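In the smaller of 2 deposited tables of nuclei, 449 of 5978 nuclei (7.51%, exact 95% binomial interval 6.86 to 8.21%) held transcripts of accessory gland seminal fluid genes above the level of the rest. They were chosen by raw counts of unique molecular identifiers (UMIs, each standing for 1 captured RNA molecule) of 6 genes, *SP*, *Acp26Aa*, *Acp36DE*, *Acp53Ea*, *Acp62F* and *Acp95EF*. A member had at least 1 UMI in 2 or more of the 6, and their summed share of its UMIs was at least 3 times the share of the whole table. The other 5529 nuclei of that table served as the comparison, and the series held 13868 nuclei in both tables.

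The study profiled nuclei from nephrocytes dissected from adult *Drosophila melanogaster* aged 5-7 days, carrying *Dot-Gal4* and *UAS-GFP.nls* on a *w1118* background, in 1 female and 1 male sample. The *Dot* driver labels nephrocytes with a nuclear green fluorescent protein that guided dissection, and every fly of both samples carried it. Tissue of many flies was pooled in a tube, frozen and sorted as DNA-stained nuclei, so any cell type left in the dissected tissue could enter the library. The table carried the male name, but its columns name barcodes and no sample, so its sex rests on that name alone, and with 1 library per table there is no replicate check and no p-value. Intervals given with the values cover counting error only.

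The male accessory gland is a paired secretory organ that makes most of the seminal fluid proteins passed to the female at mating. Its epithelium consists mainly of main cells, which make the bulk of the secretion, and of a few large, vacuole-filled secondary cells at the tip, which depend on the Hox gene *Abd-B*. The ejaculatory duct and bulb further down the tract add peptides, enzymes and mating plug proteins of their own. Sex peptide is the best known product of the main cells: it binds to stored sperm with the help of a network of other seminal proteins, increases egg laying and lowers the female's readiness to mate again.

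The 6 genes made up 0.0371% of the table's UMIs, which set the threshold at 0.111% of a nucleus. The members lay between 0.112 and 4.64%, with a median of 0.284%. Just inside the threshold were nuclei at 0.112284, 0.112328 and 0.112486%, and just outside were nuclei at 0.111173, 0.111111 and 0.110193%, so the edge fell within a continuous range. Most calls rested on few molecules. The median member had 5 UMIs of the 6 genes, with a range of 2 to 55. Of the members, 154 had UMIs of 2 of the genes, 119 of 3, 114 of 4, 47 of 5 and 15 of all 6. The members held 3505 of the table's 6724 UMIs of these genes (52.1%), and 1545 of the other nuclei (27.9%) also had at least 1.

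**Figure D1:**
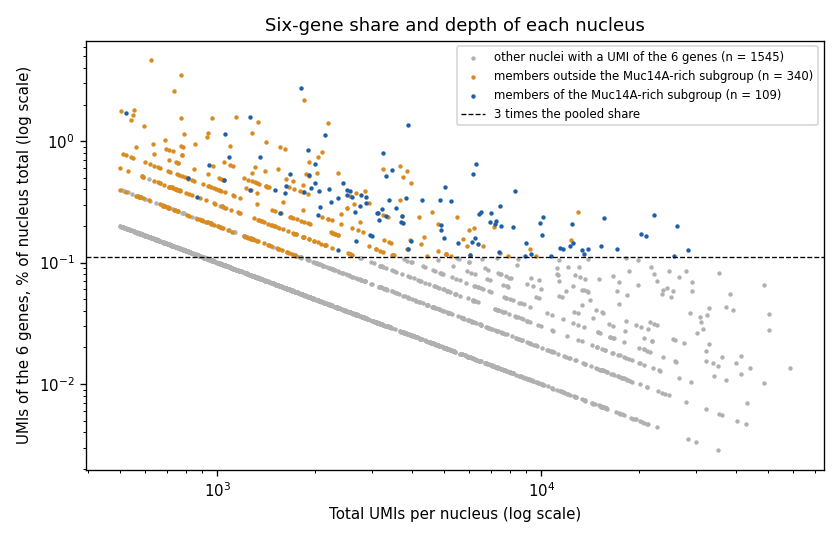
Each point is a nucleus with a UMI of the 6 genes, plotted by its total UMIs (x axis, log scale) and the percent of them from the 6 genes (y axis, log scale), with the dashed line at 3 times the pooled share. Members (orange, and blue for the 109 nuclei of the *Muc14A*-rich subgroup described in the text) lie above the line; the grey points above it had only 1 of the 6 genes.

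Members were not deeper than the rest by much. Their median was 1618 UMIs and 781 genes (range 500 to 28392 UMIs), against 1472 UMIs and 705 genes in the other nuclei (500 to 58734). The rule nevertheless treated depth unevenly. A further 406 nuclei with 2 or more of the genes fell below the share threshold at a median of 9064.5 UMIs, and held 28.6% of the 6 genes' UMIs. Another 294 nuclei were above the share with 1 gene only, at a median of 682 UMIs. The other table, with 7890 nuclei and 19107558 UMIs, listed only 2 of the 6 genes, *Acp36DE* and *Acp62F*, with 19 UMIs in all, and 0 of its nuclei met the same thresholds. The tables shared 14 barcodes, of which 0 were members.

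The levels of the 6 genes describe how the members were chosen and support nothing else. They are given as UMIs per 1000000 (CPM) of the pooled members and of the pooled other nuclei. *Acp62F*, a serine protease inhibitor, had 1143 UMIs in 338 members and stood at 897 CPM against 58.9 CPM in the other nuclei. *Acp36DE*, a glycoprotein needed for sperm storage, was at 675 against 46.3 CPM and had UMIs in 293 members. *Acp95EF*, a small seminal peptide, was at 551 against 39.0 CPM, and *Acp53Ea*, of a cluster of related secreted proteins, was at 377 against 30.6 CPM. *Acp26Aa* (ovulin), which stimulates ovulation, was at 166 against 9.55 CPM in 143 members. *SP*, which encodes sex peptide, was the lowest of them at 83.9 against 6.76 CPM, with 107 UMIs in 91 members, so most members carried no *SP* UMI at all. No nucleus supplied more than 3.32% of the members' UMIs of any of the 6.

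All genes were then compared between the members and the other nuclei. Where a gene had at least 50 UMIs in the table it was tested, and it was counted as higher or lower where its CPM in the members was at least 3 times, or at most 1/3 of, that in the other nuclei. Of 8931 genes tested, 643 (7.2%) were higher and 36 (0.403%) were lower, and the median ratio was 0.986. The 643 include the 6 choosing genes, which had to differ. The higher genes summed to 8.27% of the members' UMIs and 1.59% of the other nuclei's.

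The seminal fluid genes outside the rule were higher in the members almost throughout. Of 36 other genes whose symbol starts with Acp (accessory gland protein) or Sfp (seminal fluid protein), 28 could be tested, 24 were higher and 0 were lower, and their median ratio was 11.27 beside 0.986 over all genes tested. Together they stood at 5003 CPM in the members and 829 CPM in the other nuclei, a ratio of 6.03 (5.86 to 6.22). *Sfp51E* had the largest ratio, with 133 against 7.30 CPM (18.2, 14.3 to 23.1) and UMIs in 104 members. *Sfp84E* (17.1), *Sfp65A* (16.4), *Sfp78E* (16.2) and *Sfp26Ac* (15.6) came next, and their intervals overlapped. Higher-count genes had somewhat smaller ratios. *Acp33A* was at 601 against 49.4 CPM (12.2, 11.0 to 13.5), and *Acp53C14b* and *Acp53C14a*, neighbours of *Acp53Ea*, were at 524 against 55.2 CPM (9.50) and 460 against 48.1 CPM (9.58). *Acp26Ab*, the neighbour of *Acp26Aa*, was at 142 against 13.7 CPM (10.4, 8.48 to 12.6). Close copies such as the *Acp53C14* and *Sfp33A* genes may share reads, so their separate values are uncertain.

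The 4 tested genes that did not pass had ratios between 1.03 and 2.75. *Acp54A1* was at 832 against 335 CPM (2.49, 2.33 to 2.66). *Sfp93F* stood at 41.6 against 15.1 CPM (2.75, 2.0 to 3.71), an interval that includes the fold. *Acp32CD* reached 221 against 117 CPM (1.90), and 27.0% of its UMIs in the members came from 1 nucleus. *Acph-1*, an acid phosphatase that enters only by its symbol, was level at 13.3 against 13.0 CPM (1.03). Per nucleus, 388 of the 449 members (86.4%) had at least 2 UMIs of these other seminal fluid genes, against 25.4% of the other nuclei, and 25 members had 0. This count does not set the members apart from the 406 nuclei left out by their share alone, of which 351 (86.5%) had as many. Those were deeper, with a median of 9064.5 UMIs against 1618, and held these genes at 1315 CPM, so the counts are not compared at equal depth.

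**Figure D2:**
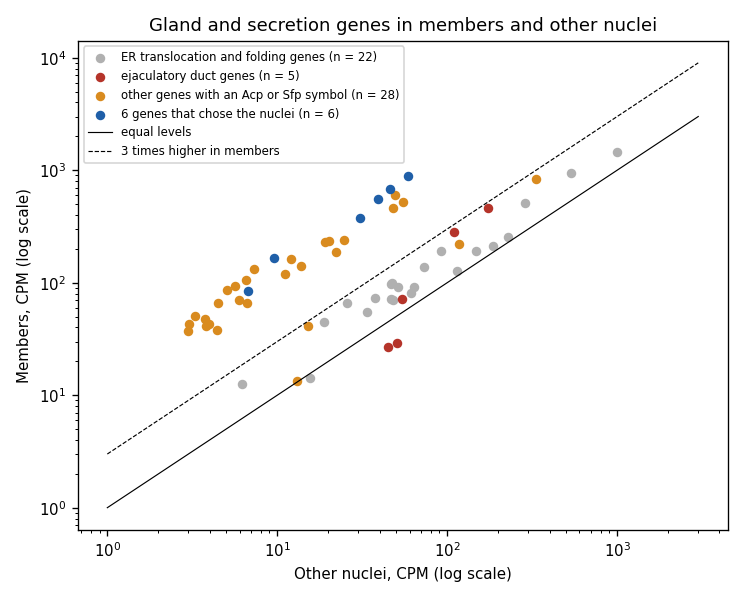
Each point is a tested gene, with its pooled level in the other nuclei (x axis) and in the members (y axis), both in CPM on log scales. The 6 choosing genes (blue) and 24 of 28 other Acp and Sfp genes (orange) lie above the dashed line of a 3 times higher level, while the genes of the endoplasmic reticulum (grey) and of the ejaculatory duct (red) lie below it.

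The sex peptide network was split. Of 12 listed genes, 11 were tested, 4 were higher and 0 were lower (median ratio 2.57). *Sems* (seminase), of the trypsin family, was at 53.3 against 2.85 CPM (18.7, 12.8 to 27.7). *aqrs*, a protease homolog, was at 68.3 against 5.22 CPM (13.1), the protease homolog *CG9997* at 77.7 against 6.70 CPM (11.6), and the cysteine-rich protein gene *antr* at 33.0 against 6.11 CPM (5.39, 3.67 to 7.79). These genes encode seminal proteins made by the male that help sex peptide bind to stored sperm. *intr* had too few UMIs to be tested, 25 in the members and 21 in the other nuclei. The lectins *lectin-46Cb* (2.97, 2.40 to 3.66) and *lectin-46Ca* (1.76) and the secreted *CG17575* (2.57) stayed under the fold. *SPR*, the receptor of sex peptide in the female, had 4 UMIs in the members (0.62, 0.17 to 1.65), and the female-acting *hdly*, *frma* and *Esp* had ratios of 1.0, 0.87 and 0.78.

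Most listed secreted proteases and their inhibitors were higher too, but the list overlaps with the genes above. Of 13 listed genes, 11 were tested, 9 were higher and 0 were lower (median ratio 12.9), beside 7.2% higher among all genes tested. The 13 include *Acp62F* of the rule, which had to differ, *Acp76A* of the Acp genes, and *Sems* and *CG9997* of the network. Their values are therefore no separate support. The serpins *Spn38F* (217 against 16.1 CPM, 13.5), *Spn28F* (110 against 8.48 CPM, 12.9) and *Spn75F* (22.8 against 1.25 CPM, 18.3) were among them, as were *CG10587* (14.1) and *CG6168* (11.8) and the serpin *Acp76A* (8.46). The serpins *Spn77Bb* and *Spn77Bc* went the other way, with ratios of 0.73 and 0.49, and 47.3% of the members' *Spn77Bb* UMIs came from 1 nucleus.

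Among 12 transcription factors of reproductive glands, all tested, 1 was higher and 1 lower, beside 7.2 and 0.403% of all genes tested. The count is near that share, and the list was not raised as a whole: 3 of 12 had a ratio over 1, with a median of 0.81. The values below are therefore of single genes. *prd* (*paired*), a Pax-family factor required for accessory gland growth and secretion, was at 37.7 against 2.20 CPM (17.2, 10.9 to 27.1), with 48 UMIs in 40 members. The members held 56.5% of the table's *prd* UMIs. *dsx*, the sex determination factor, was abundant in both groups at 870 and 1205 CPM (0.72). *CrebA*, a regulator of secretory pathway genes, stood at 1437 against 998 CPM (1.44, 1.37 to 1.51), and *Xbp1*, of the unfolded protein response, at 253 against 229 CPM (1.11, 0.99 to 1.24).

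Secondary cell genes were not raised in the members as a list, with a median ratio of 0.88 beside 0.986 over all genes tested. Of 11 tested, 0 were higher and 2 were lower, beside 7.2 and 0.403% of all genes tested. With so few genes, a count of 0 higher is near that share and says little. *Abd-B* was at 13.3 against 54.2 CPM (0.25, 0.14 to 0.40), with 17 UMIs in 8 members. The noncoding RNA of the same region, *lncRNA:iab8*, which holds the male-specific abdominal transcript of secondary cells, was at 11.0 against 47.6 CPM (0.23, 0.13 to 0.39). The homeobox gene *dve* (0.80) and *Rab19*, which marks secretory compartments of secondary cells (0.88), differed little. Both lectins and *CG17575*, which are secondary cell products too, owed much of their level to 1 member that held 20 of 106 *lectin-46Ca* UMIs, 34 of 111 *lectin-46Cb* UMIs, 46 of 153 *CG17575* UMIs and 76 of 282 *Acp32CD* UMIs. That nucleus had 2512 UMIs, 7 of them from the 6 choosing genes, and 0 of *Abd-B*, *prd* or *Muc14A*. With a set of at least 10 UMIs of those 3 genes, chosen after the values were seen, 6 members held 175 of the members' 370 such UMIs and 1 of the 6 had an *Abd-B* UMI. By the same count 10 other nuclei held 1159 of 2078, and 5 of those 10 had *Abd-B*. Such nuclei were 1.34% of the members and 0.181% of the other nuclei, and their median depth was 1010 and 7377.5 UMIs, so a fixed count of UMIs does not compare them at equal depth.

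Genes of the ejaculatory duct differed among themselves. Of 5 tested, 0 were higher, beside 7.2% of all genes tested, and the median ratio was 1.32. *Dup99B*, a peptide of the sex peptide family made in the duct, was at 462 against 173 CPM (2.66, 2.43 to 2.91) and had UMIs in 249 members. *Anp*, the antibacterial peptide andropin, was at 284 against 109 CPM (2.60, 2.32 to 2.91). Without the shallow subgroup 1, described with the clusters, these 2 ratios were 1.81 and 1.71, and the median of the list was 1.02. *Est-6* (1.32) and *Gld* (0.57), duct enzymes transferred at mating, and the Hox gene *abd-A* (0.60) did not follow *Dup99B* and *Anp*. *EbpIII*, of the ejaculatory bulb, was high in both groups at 2779 and 3532 CPM (0.79).

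Most genes of the secretion machinery had ratios somewhat over 1, and 0 passed the 3-fold limit. None of 22 tested genes of translocation, folding and stress in the endoplasmic reticulum passed it in either direction, beside 7.2% higher and 0.403% lower among all genes. On so few genes a count of 0 is near these shares and says little. Of the 22, 21 had a ratio over 1, as 48.8% of all genes tested did, with a median of 1.70 and a range of 0.90 to 2.55. *Hsc70-3*, the chaperone BiP, was at 942 against 533 CPM (1.77, 1.66 to 1.88), and *Calr*, calreticulin, at 511 against 288 CPM (1.78). The signal peptidase subunit *Spase12* had the largest ratio (2.55, 2.0 to 3.23), followed by the disulfide isomerase *CaBP1* (2.38). The kinase gene *PEK* alone was under 1 (0.90). Genes of exit from the endoplasmic reticulum and Golgi traffic had a median ratio of 1.24 over 21 tested, with 0 called. Genes of growth, hormone and mating signalling had one of 0.88 over 13, also with 0 called. Both counts are again near the shares of all genes. The octopamine receptor *Octbeta2R* was at 103 against 237 CPM (0.43, 0.36 to 0.52).

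Free RNA from broken cells gives droplets a low level of transcripts they did not make, so the shares of nuclei with a UMI were set beside 544 other nuclei marked by muscle genes and 415 marked by fat body genes, which should lack gland products. *SP* had a UMI in 20.3% of members (16.6 to 24.3%), 0.919% of muscle-marked nuclei (median 1168.5 UMIs) and 0.964% of fat-marked nuclei (median 1696 UMIs). For *Acp62F* the shares were 75.3, 8.82 and 6.51%. After each nucleus was thinned to 500 UMIs they were 39.2, 2.02 and 1.20%. Both genes chose the members, and the marked nuclei exclude members by construction, so these shares only give the background level. Of the genes the rule did not use, any other Acp or Sfp gene had a UMI in 94.4% of members and in 41.2 and 37.8% of the marked nuclei, and after thinning in 83.1, 19.9 and 16.9%. *Muc14A* had one in 23.6% of thinned members (19.8 to 27.8%) against 2.02 and 0.964%. *prd* had one in 8.91% of members, against 0.551 and 0.241%, and in 1.56% once thinned (0.629 to 3.19%), where the count was too low to be read against the 0.184% of muscle-marked nuclei. Seminal fluid transcripts were thus present at a low level across the table as well as in the members.

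**Figure D3:**
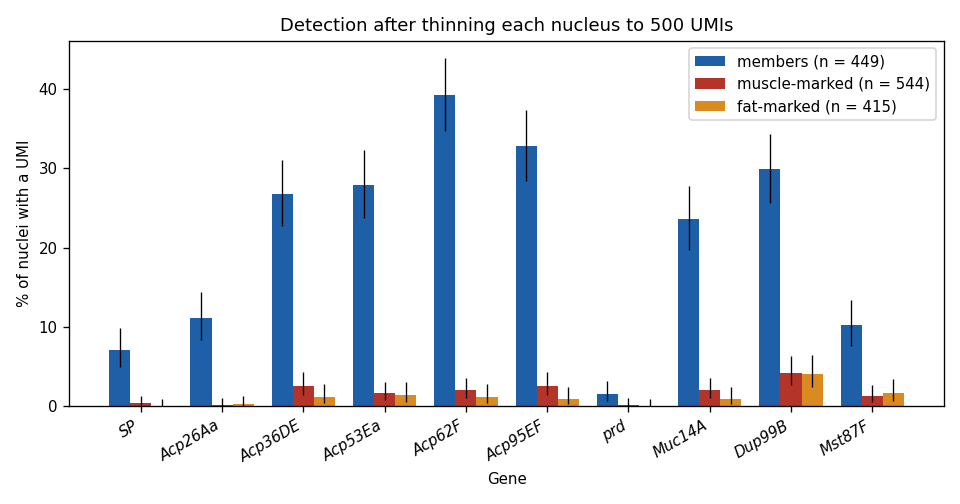
Bars give the percent of nuclei with a UMI of each gene after thinning every nucleus to 500 UMIs, for members (blue), muscle-marked nuclei (red) and fat-marked nuclei (orange), with exact 95% binomial intervals. *Acp62F* was found in 39.2% of members and in 2.02 and 1.20% of the marked nuclei, and *Dup99B* and *Mst87F*, which belong to the duct and to sperm, were also found more often in members.

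Markers of other tissues were present in the members, mostly below their level in the other nuclei when summed by tissue. Muscle genes summed to 3773 against 5424 CPM (0 of 6 past the fold) and fat body genes to 3736 against 5569 CPM (0 of 3). Hemocyte (450 against 534 CPM), tracheal (222 against 474), neuron (238 against 276), enterocyte (446 against 699) and epidermis genes (1479 against 1964) were lower in sum as well. The counts of 0 for muscle and fat body rest on few genes and are near the 7.2% higher and 0.403% lower of all genes tested. Oenocyte genes were near level, at 2607 against 2725 CPM, with *Cyp4g1*, a hydrocarbon-synthesis enzyme, at 1439 against 468 CPM (3.07, 2.92 to 3.23). Without the shallow subgroup 1 described with the clusters, *Cyp4g1* stood at 912 CPM (1.95) and no longer passed. Tubule genes were at 337 against 381 CPM with *Alp4* at 27.5 against 6.23 CPM (4.41). The nephrocyte genes that name the dissected tissue summed to 1098 against 1312 CPM, and *kirre* alone was 1140 CPM of the latter. Gene by gene, 6 of 7 tested had a ratio over 1, beside 48.8% of all genes tested. Their median ratio was 1.78, or 1.41 without subgroup 1, and 1 was higher. *sns*, of the slit diaphragm, had a ratio of 1.11, but 70 of its 79 UMIs in subgroup 2 came from 1 nucleus. The higher gene was *Amnionless*, of the uptake receptor, at 3.12 (1.72 to 5.35) on 17 UMIs and 2.02 without subgroup 1. The nephrocyte factor *Klf15* had 1 UMI in the members and 12 in the other nuclei.

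Sperm genes were mixed. The 12 listed spermatocyte and sperm genes summed to 733 against 392 CPM. Of 7 tested, 5 had a ratio over 1, with a median of 2.15, and 2 were higher, beside 7.2% of all genes tested. The higher genes were *dj*, a sperm tail protein, at 100.4 against 29.96 CPM (3.35, 2.74 to 4.08), and the Y-linked dynein *kl-2* at 94.1 against 22.9 CPM (4.11). Without subgroup 1, *dj* was at 72.4 CPM (2.42) and no longer passed. *kl-2* rested on 1 member of 9632 UMIs, which held 71.7% of its UMIs. *Mst87F*, a protein of the sperm tail, was at 148 against 52.4 CPM (2.83) in 125 members, with a ratio of 1.87 without subgroup 1. The mitofusin *fzo* of spermatids was at 47.1 against 85.9 CPM (0.55), and the Y-linked dynein *kl-5* at 15.7 against 19.1 CPM. In the *Muc14A*-rich subgroup 2, *ORY* was at 98.1 against 29.1 CPM (3.37, 2.56 to 4.37) and *kl-3* at 389 against 145 CPM (2.68). Of their UMIs there, 40.0 and 39.5% came from 1 nucleus. *ORY* was the 1 of 7 tested sperm genes higher in that subgroup, where their median ratio was 1.51. *lncRNA:roX1*, an RNA of the male X chromosome's dosage compensation complex, was at 14283 against 18124 CPM (0.79). In all, 34 members (7.57%) also met the muscle or fat body marking rule, against 17.1% of the other nuclei. Without those 34 the count of higher genes was 663 and the median ratio of the other Acp and Sfp genes 11.7. The part of the sperm transcripts in the results was not tested.

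Outside the lists, the genes with the largest ratios were mostly unnamed genes and noncoding RNAs. *lncRNA:CR43632* stood highest at 40.8 against 0.77 CPM (52.9, 28.4 to 106), with 52 UMIs in 41 members and 80.0% of its UMIs in the table. *CG12158* followed at 46.3, but 97.4% of its 77 UMIs came from 1 member with 0 *Muc14A* UMIs, so its value describes that nucleus. *CG43938* was at 145 against 4.51 CPM (32.2, 24.5 to 42.6) in 61 members. *dpr18*, an immunoglobulin-domain protein of the Dpr family, was at 74.5 against 2.61 CPM (28.5, 19.8 to 41.8). *lncRNA:CR43714* (27.6), *lncRNA:CR43634* (26.4), *lncRNA:CR43660* (26.4), *CG13557* (25.2), *CG44406* (25.2), *CG18233* (24.8), *CG14277* (24.4), *CG43931* (23.9), *lncRNA:TS14* (23.6) and *CG42682* (22.9) had intervals that overlapped. *CG14277* had 22.9% of its member UMIs in 1 nucleus.

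The most abundant of these genes was *Muc14A*, named for the mucins, the glycoproteins of mucus. It had 2584 UMIs in 135 members, 63.6% of its UMIs in the table, and stood at 2027 against 87.9 CPM (23.1, 21.6 to 24.6). It was concentrated. Of the members 114 had at least 5 *Muc14A* UMIs, as did 80 of the other nuclei.

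None of the most abundant transcripts of the members had an Acp or Sfp symbol. These levels were not scaled by gene length. *CG14645* was first at 20145 against 6283 CPM (3.21, 3.16 to 3.25), followed by *lncRNA:roX1*, by *lncRNA:Hsromega*, a nuclear RNA of the heat shock response (11789 against 15904 CPM), and by *CG34324* (11378 against 5140 CPM, 2.21). *CG34220* (2.50) and *CG3906* (1.84) had ratios over 1 as well. Subgroup 1 carried much of this. In the *Muc14A*-rich subgroup 2 the ratios of *CG14645*, *CG34324*, *CG34220* and *CG3906* were 1.08, 1.05, 1.09 and 0.95, and *CG14645* no longer passed without subgroup 1 (2.15). The remaining genes, *CG6770* (0.93), the factor *Pdp1* (0.75), *CG9932* (0.81) and the factor *Eip93F* (0.89), had ratios under 1. Among well-counted genes, *lncRNA:iab8* and *Abd-B*, given with the secondary cell genes, and a gene without a symbol had smaller ratios than those that follow. The genes named here had ratios from 0.27 to 0.39, on both sides of the 1/3 limit. *Slob*, a potassium channel binding protein, was at 46.3 against 169 CPM (0.27, 0.21 to 0.35), the potassium channel *Shaw* at 18.8 against 58.5 CPM (0.32), *dcma* at 25.1 against 72.9 CPM (0.34) and the factor *salm* at 36.1 against 92.5 CPM (0.39). The last 2 did not pass.

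The members were not uniform. Graph clustering of the 449 nuclei without the 6 genes gave 5 subgroups of 113, 109, 104, 74 and 49 nuclei, numbered here in that order. Their own leading genes describe the split and are no evidence for it. Differences between subgroups were not tested.

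Subgroup 2 held the gland factor *prd* and *Muc14A* beside the seminal fluid genes. Its 109 nuclei were the deepest, with a median of 3711 UMIs, and held 52.0% of the members' UMIs. *Muc14A* was at 3623 CPM and had UMIs in 105 of them (96.3%), and 39 of the members' 48 *prd* UMIs lay here, at 58.8 CPM. *CG43938* (271.6 CPM, 180 of 185 UMIs), *CG32683* (80 of 83 UMIs) and *lncRNA:sphinx* led it as well, beside *CG12158*, with 98.7% of its UMIs in 1 nucleus, and *Lim1*, with UMIs in 11 nuclei and 39.4% of them in 1. *Acp62F* had a UMI in 108 nuclei and *Acp36DE* in 102. Mitochondrial RNA was 0.322% of UMIs, near the 0.306% of the other nuclei, and *lncRNA:roX1* was at 15378 CPM.

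Most seminal fluid genes were also higher in subgroup 2 than in the other nuclei. Its nuclei were picked by the rule, and the clustering left out only the 6 genes. The other Acp and Sfp genes, *prd* and *Muc14A* could therefore shape the subgroup, and the values that follow are a description. Of 8782 genes tested, 463 (5.27%) were higher and 58 (0.66%) lower, and 353 of the 643 genes higher in all members (54.9%) were higher here. Of the 28 other Acp and Sfp genes tested, 24 were higher, with a median ratio of 11.2. *Sfp51E* was at 198 against 7.30 CPM (27.1, 21.0 to 34.9), *Sems* at 75.4 against 2.85 CPM (26.5), *aqrs* at 87.5 against 5.22 CPM (16.8), *CG9997* at 98.1 against 6.70 CPM (14.6) and *antr* at 43.8 against 6.11 CPM (7.16). *prd* reached a ratio of 26.8 (16.6 to 43.2) and *Muc14A* 41.2 (38.6 to 44.0). Of the endoplasmic reticulum genes 2 of 22 passed the fold, with a median of 1.89, and *Hsc70-3* was at 1210 against 533 CPM (2.27, 2.11 to 2.44). *Dup99B* was at 119 against 173 CPM (0.69, 0.54 to 0.86) and *Acp54A1* at 187 against 335 CPM (0.56, 0.46 to 0.67). *Anp* (0.51), *Acp32CD* (0.39) and *CG17575* (0.39) were likewise below the other nuclei here, although the ratios of all 5 in the members as a whole were over 1. *Abd-B* had 15 UMIs in 6 nuclei (0.42, 0.23 to 0.69).

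Subgroup 1 was shallow and had high levels of duct and sperm tail genes beside the seminal fluid genes. Its 113 nuclei had a median of 810 UMIs and held 9.03% of the members' UMIs, yet the highest summed levels of the 6 genes (6162 CPM) and of the other Acp and Sfp genes (14288 CPM). Mitochondrial RNA was 3.64% of UMIs, and *lncRNA:roX1* stood at 2381 CPM against 18124 CPM in the other nuclei. *Muc14A* was at 52.1 CPM with 6 UMIs, and *prd* had 3 UMIs. *Dup99B* was at 1947 CPM in 92 nuclei, *Anp* at 1260 CPM in 74 and *Mst87F* at 652 CPM in 49, while the bulb gene *EbpIII* was at 4024 CPM, near the 3532 CPM of the other nuclei, and *Abd-B* had 0 UMIs. *Cyp4g1* was at 6753 CPM in 112 of 113 nuclei, and *CG14645* alone made up 87015 CPM. Its leading genes *CG31709*, *CG14245*, *CG17470*, *CG17376* and *CG18662* each had between 21 and 51 UMIs. These are pooled levels, and the number of nuclei with all 3 kinds of transcript was not counted. Whether they are gland nuclei was not tested. Without them the count of genes higher in the members was 421 of 8877 in place of 643, and the median ratio of the Acp and Sfp genes was 9.72.

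Subgroups 3 to 5 held the 6 genes at 2426, 2531 and 2155 CPM, close to the 2419 CPM of subgroup 2, but little *Muc14A* (630, 187 and 36.7 CPM). *prd* had 4, 2 and 0 UMIs there. The other Acp and Sfp genes stood at 4174, 4310 and 4384 CPM, and the share of nuclei with at least 2 of their UMIs was 79.8, 74.3 and 67.3%, against 97.3 and 98.2% in subgroups 1 and 2. Subgroup 3, led by *nolo*, *haf*, *Cralbp* and *CG11529*, had 18 nuclei with *Muc14A*, and its epidermis genes summed to 4121 CPM against 1964 CPM, with *ple*, the tyrosine hydroxylase of cuticle tanning, at 3408 against 1576 CPM. *EbpIII* was at 7106 CPM there. Subgroup 4 had the muscle genes *sls* (2985 CPM) and *Mhc* (1884 CPM) above the other nuclei (1771 and 738 CPM), *dve* at 6486 CPM, and 15 nuclei that also met the muscle or fat body rule. Its leading genes, *CG7084*, *CG15155*, *GluClalpha*, *lncRNA:CR43310* and *kumpel*, each came mostly from 1 nucleus. Subgroup 5 had the fat body lipoprotein *apolpp* at 9557 CPM against 5232 CPM. It was led by *CG16772*, *BomBc1*, *CG31769*, *BomBc3* and *CG34166*, of which the Bom genes encode immune-induced peptides. In that order, 82.7, 81.25, 54.5, 51.4 and 24.7% of their UMIs there came from 1 nucleus, so most of these values describe single nuclei. The clustering could use all of these genes, so the differences between subgroups are a description. A single cell type for all 449 nuclei was not shown.

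**Figure D4:**
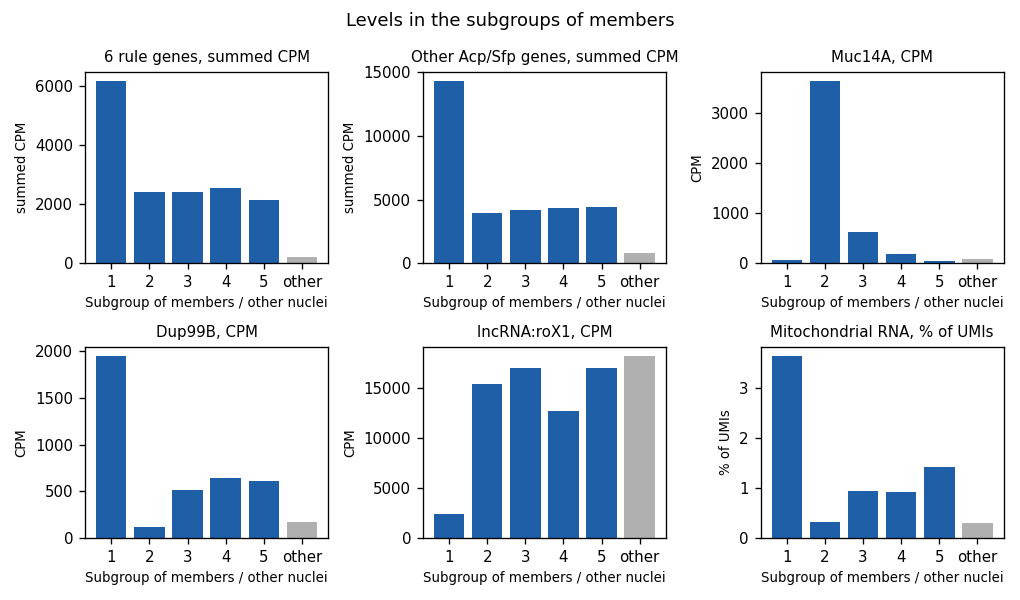
Bars give pooled levels in the 5 subgroups of members (blue) and in the other nuclei (grey), in CPM or, for mitochondrial RNA, in percent of UMIs. Subgroup 2 stands out by *Muc14A* (3623 CPM), and subgroup 1 by the highest Acp, Sfp and *Dup99B* levels, the most mitochondrial RNA (3.64%) and the least *lncRNA:roX1* (2381 CPM).

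The members also differed by how many UMIs of the 6 genes they had, a value the rule used and one that went with depth, so what follows is a description. From members with 2 UMIs through 3, 4 to 5, 6 to 9, 10 to 19 and 20 to 55, the median depth was 959, 1164, 1322, 2007, 3746 and 6882 UMIs. *Muc14A* stood at 101, 190, 575, 2234, 2371 and 3284 CPM over these bins. *prd* stood at 14.4, 19.99, 17.97, 33.9, 42.9 and 56.7 CPM. The other Acp and Sfp genes gave no such order, at 2796, 5257, 5686, 5654, 4650 and 4913 CPM in sum. The 406 nuclei left out by their share alone had *Muc14A* at 236.5 CPM and *prd* at 5.43 CPM, above the 18.0 and 0.891 CPM of the 3984 nuclei with no UMI of the 6.

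The genes higher in the members shared features that the rule did not use. By the BDGP6 annotation of Ensembl, 48 of the 643 (7.47%) lay on the X chromosome, against 16.0% of the tested genes with a chromosome arm, and 28.5% lay on 2L against 18.7%. The shares on 2R (19.8 and 20.4%), 3L (18.4 and 19.3%) and 3R (24.3 and 24.5%) were alike. Of the 33 tested Acp and Sfp genes, the rule's included, 0 were on X and 14 on 2L. The higher genes had short proteins. Their median coding length was 233 codons, with quartiles of 134 and 446, against 455 (259 and 746) over all genes tested, and 120 codons for the Acp and Sfp genes. Noncoding RNAs by symbol made up 86 of them (13.4%), against 4.199% of the genes tested, and 346 (53.8%) had only a CG number for a name, against 33.5%.

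**Figure D5:**
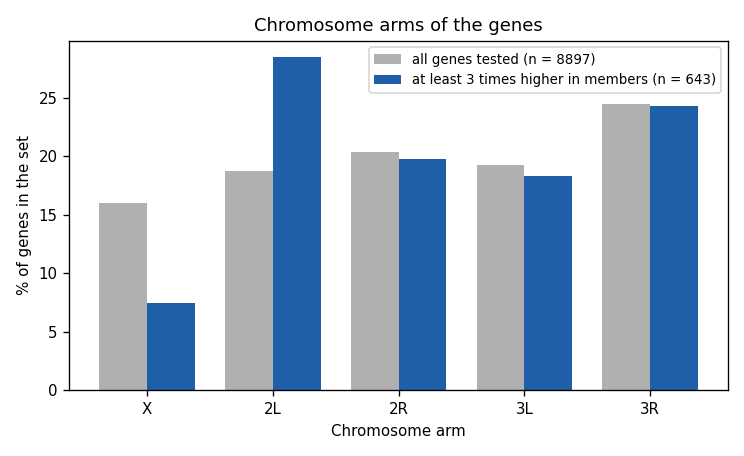
Bars give the percent of genes on each chromosome arm (x axis) for all 8897 tested genes with an arm (grey) and for the 643 genes at least 3 times higher in members (blue). The higher genes were fewer on X (7.47 against 16.0%) and more on 2L (28.5 against 18.7%).

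The higher genes also lay side by side, with the same limits from the minimum and the choosing genes. Of the 643, 311 (48.9%) were next to another higher gene in the order of tested genes, against 13.0% of all genes tested. The longest run held 10 genes on 3R. It contained *lncRNA:CR43632*, *lncRNA:CR43634*, *Sfp96F* and the male-specific transcripts *Mst57Da*, *Mst57Db* and *Mst57Dc*, which were named after their values were seen. *Mst57Da* was at 1541 against 164 CPM (9.41), *Mst57Db* at 520 against 49.7 CPM (10.5) and *Mst57Dc* at 515 against 48.6 CPM (10.6). A run of 6 on 2R held *Acp53Ea* with *Sfp53D*, *Acp53C14a*, *Acp53C14b*, *Acp53C14c* and *lncRNA:CR43104*, and a run of 5 on 2L held *Acp26Aa* with *Acp26Ab*, *Sfp26Ac*, *CG9029* and *CG43185*. Overlapping and antisense genes can share reads, and whether counting used the strand is not stated, so noncoding RNAs beside seminal fluid genes may carry some of their UMIs.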

How the data were processed

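Nuclei of dissected nephrocytes were profiled by droplet 3′ sequencing. Raw UMI counts of genes by barcodes were deposited by the authors in 2 tables, as cellranger count output. Its version, the genome build and the gene annotation were not given in the sources used here. In the methods, unrelated clusters were filtered out after clustering, and whether the deposited tables came before or after that step is not stated. The labels and the methods name different versions of the kit. Both tables list only barcodes of at least 500 UMIs, and the one used held 18130609 UMIs.

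FlyBase identifiers were matched to symbols, which left 64 of 14930 genes without one. UMIs were summed over members and over other nuclei and scaled to UMIs per 1000000 (CPM). Genes of at least 50 UMIs were tested against a fold of 3, with exact Poisson intervals for levels and exact conditional binomial intervals for ratios at 95%. The procedure was tested on simulated data. No p-value was computed, since each table is 1 library. Doublets were neither called nor removed. Marked nuclei had at least 1 UMI in 2 or more muscle or fat body genes and at least 3 times the table's share of them.

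Members were clustered without the 6 genes, on 2000 variable genes, with counts scaled to 10000 and logged, 10 principal components, 15 neighbors and a Leiden resolution of 0.5, in Python 3.11.15 with scanpy 1.11.5, python-igraph 0.11.9, scikit-learn 1.9.0 and scipy 1.17.1.

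Named genes were the 6, those of the gene lists or with an Acp or Sfp symbol, the 10 of highest CPM in members, the 15 of largest ratio outside the lists with at least 50 UMIs in members, the 10 of smallest ratio with at least 500 UMIs in other nuclei, and the 5 leading genes of each subgroup. Genes without a symbol were left unnamed. The members and lists were chosen with earlier results of these data known. Alternatives changed the scaling, depth, filters, fold, rule and the nuclei compared.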

Additional observations from a re-analysis of the deposited data

How the results depend on the processing

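The number of members was 543 at 2 times and 326 at 5 times the pooled share, but 175 at 10 times, 295 with 3 or more of the 6 genes, and 208 with each nucleus thinned to 500 UMIs. The count of higher genes, 643 of 8931 tested, became 1114 at a fold of 2 and 298 at a fold of 5. It was 2147 of 14930 with no minimum and 203 of 5479 with at least 200 UMIs, so the share called was smaller among well-counted genes. It was 212 of 4622 tested after thinning and 1116 for members at 10 times the share. It was 421 without the subgroup low in *lncRNA:roX1*, an alternative chosen after seeing the data, as was keeping members with at least 2 UMIs of other seminal fluid genes (653). The count of lower genes, 36, became 143 with the mean over nuclei, 74 without muscle-marked or fat-marked members and 313 at 10 times the share. It was 278 at a fold of 2, 4 at a fold of 5, 65 of 4622 thinned and 16 of 5479 with at least 200 UMIs. The median ratio of the Acp and Sfp genes, 11.27, was 12.9 with the mean over nuclei, 12.8 thinned, 11.7 without the marked members, 17.9 against other nuclei without a UMI of the 6 genes, 17.4 at 10 times the share and 9.72 without the low *lncRNA:roX1* subgroup. The cause of these shifts was not tested beyond what each alternative leaves out. No paired analysis was possible because the groups are nuclei of 1 library.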
